A study of Mus musculus with 6 samples.

Results

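The exon bins described here are those that held few reads in control cells and were called by the study's test of exon usage after knockdown of Ptbp1. A bin is an exon or a part of an exon, numbered within its gene. The authors' deposited table for this knockdown lists 958 bins whose relative usage differed at an adjusted p under 0.01. Those with a numbered row name and a mean of under 250 raw reads in the 2 control libraries were taken, which gave 231 bins in 173 genes of the 602 genes in the table. The bins were thus chosen by the same contrast and by the control counts described below, so the count changes are a description and carry no test. Just inside the threshold lay bin 41 of Huwe1 and bin 8 of Pde4b, each with a control mean of 247.5 reads, and bin 9 of Ctnnd1 with 249, at log2 ratios of shPtbp1 over shCtrl of 0.23, -0.69 and 0.81. Just outside lay bin 2 of Gm4890 with 255.5 and bin 1 of Sdpr with 257, at log2 ratios of -0.47 and 0.18.

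PTBP1 is an RNA-binding protein that binds pyrimidine-rich RNA and commonly represses the inclusion of nearby exons. It is abundant in neural stem cells and falls as neurons differentiate, and many exons that it silences in progenitors are included in neuronal transcripts. Known examples are the N1 exon of Src and neuronal exons in transcripts of cytoskeletal and endocytic proteins. The table gives no coordinates, so no bin is equated with a named exon here and no exon sequence is shown.

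The cells were cultured from the mouse ventricular-subventricular zone, the neural stem cell niche beside the lateral ventricle, of C57/B6 animals at postnatal day 5 to 7, and were grown with serum, EGF and FGF. All carried a PSICO-R vector with a short hairpin RNA and were sorted for its fluorescent marker, GFP alone or GFP with mCherry. The hairpin was directed against luciferase in the control group (shCtrl), against Ptbp1 in the knockdown group (shPtbp1) and against the long noncoding RNA Pnky in the group used only for a side-by-side view (shPnky), with 2 libraries in each. The labels do not say whether the replicates were separate cultures or animals.

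The reads in all 958 listed bins summed to between 3514859 and 3920040 in the 4 libraries of the shPtbp1 table. These sums are not library sizes, and counts are given unscaled. In the targeted gene, bin 13 of Ptbp1 held 22334 and 19594 reads with shCtrl and 4967 and 4961 with shPtbp1. Each shPtbp1 library was thus far below each control library. Cell type composition could not be checked on the low-count bins: of 5 marker lists, Cd44, Prom1, Ncam1, Nfasc and Dnah7b were the genes with such a bin, and no gene of the microglial, endothelial, pericyte and fibroblast list had one. In bulk RNA, fewer cells of a type and less RNA per cell cannot be told apart.

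The 231 bins mostly gained reads. Their summed reads were 21137 and 19107 with shCtrl and 36654 and 36945 with shPtbp1. The mean count was higher in shPtbp1 in 173 bins and lower in 58, while 54.9% of all listed bins had a higher mean. The median log2 ratio of the means, with 1 read added to each, was 1.06, against 0.08 over all 958 listed bins. The median absolute log2 ratio between the 2 libraries was 0.25 in shCtrl and 0.15 in shPtbp1, against 1.31 between the groups. In the other listed bins the median absolute log2 ratio between the groups was 0.33. The bins were called by a test of this contrast, which favours a gap wider than the replicate spread, so nothing is read from it.

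A bin is said below to have risen when both shPtbp1 libraries exceeded both shCtrl libraries and the mean was at least 2-fold higher, and to have fallen in the reverse case. By this definition 121 of the 231 bins rose, in 88 genes, and 29 fell, in 18 genes. Of all 958 listed bins, 16.3% rose and 6.58% fell. Among the 727 other listed bins alone the shares were 4.81% and 4.68%. The authors' test had called 0.598% of 160290 bins. That total was derived from the adjusted and raw p-values of the last called bin, because only called bins are listed. A bin with few control reads tends to need a larger relative change to pass such a test. A threshold on the control count also favours bins that are higher in the other group. These shares are therefore set side by side and nothing is read from their difference. Rises of at least 4-fold were found in 53 bins, of at least 8-fold in 13 and of at least 16-fold in 6. Bins with no control read entered these counts at their lower bound against a floor of 3 control reads. Such counts were not made over all listed bins, so nothing is read from them. The rises of at least 16-fold were in bins of Lrrfip1, Pdlim5 and Efcab5. Without regard to size, both shPtbp1 libraries lay above both controls in 169 of the 231 bins (73.2%) and below both in 53 (22.9%). The groups overlapped in 9 of the 231. Over all 958 listed bins the shares above and below were 48.3% and 37.3%, again only set side by side.

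**Figure D1:**
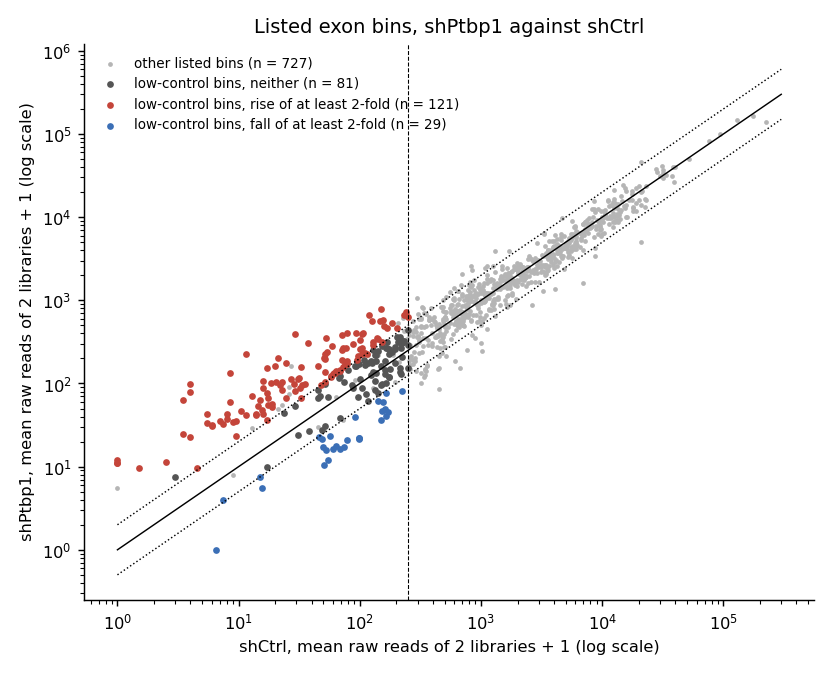
Mean raw reads plus 1 of each listed exon bin in the 2 shCtrl libraries (x axis, log scale) and the 2 shPtbp1 libraries (y axis, log scale). Grey points are the other 727 listed bins, coloured and dark points the 231 low-control bins; the solid line marks equality, dotted lines 2-fold, and the dashed line 250 reads. To the left of the dashed line most coloured points lie above the upper dotted line: 121 rose and 29 fell.

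The size of the change and the share of bins that rose followed the control level, while the share that fell showed no such order. Of 52 bins with a control mean under 20 reads, 46 rose and 4 fell, with a median log2 ratio of 2.21. From 20 to under 50 reads, 20 of 32 rose and 4 fell (median 1.47), and from 50 to under 100 reads, 32 of 60 rose and 12 fell (median 1.02). From 100 to under 150 reads, 14 of 37 rose and 2 fell (median 0.69), and from 150 to under 250 reads, 9 of 50 rose and 7 fell (median 0.39). The gradient is in the direction that the choice of bins by test and threshold gives.

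**Figure D2:**
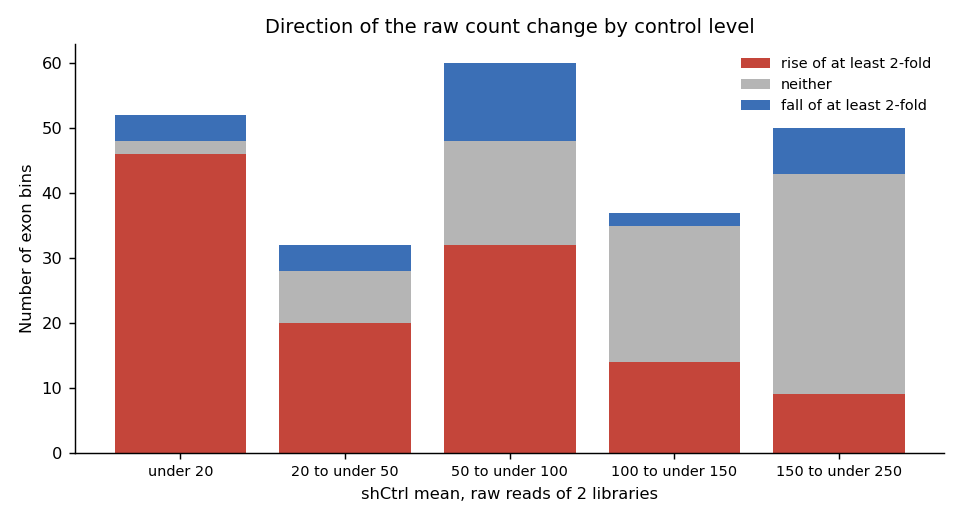
Number of low-control exon bins (y axis) by mean raw reads in shCtrl (x axis), divided into bins that rose at least 2-fold, fell at least 2-fold or did neither. Rises make up 46 of 52 bins in the lowest class and 9 of 50 in the highest.

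Bins with a control mean under 20 reads are called nearly silent below. The 46 that rose lie in 37 genes and went from 867 reads in the 2 shCtrl libraries together to 5224 in the 2 shPtbp1 libraries. The median control mean of all 52 was 8.5 reads and the median shPtbp1 mean 41.25. In shPtbp1, 40 of the 46 reached a mean of at least 20 reads and 6 of at least 100. Intervals given with folds are exact conditional 95% intervals for the ratio of 2 counts and cover counting error only.

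The genes are described by their known roles, not as tested groups. The largest log2 ratios were in bins of Lrrfip1 and Pdlim5. Lrrfip1 encodes a protein that binds the actin-remodelling factor Flightless and also nucleic acids. Its bin 4 held 4 and 2 reads with shCtrl and 118 and 79 with shPtbp1, a 32.8-fold rise (interval 14.8 to 90.6), and bin 3 went from 2 and 4 to 90 and 64 reads, a 25.7-fold rise. Bin 5 of Lrrfip1 changed from 7 and 8 to 146 and 122 reads, and bin 6 from 19 and 13 to 159 and 149. In each of these 4 bins the gap between the groups was wider than the spread within either group.

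Pdlim5 encodes a PDZ and LIM domain scaffold that links protein kinases to actin filaments. Its bin 9 rose 21.2-fold, from 14 and 7 reads to 234 and 212, and bin 10 rose 25.2-fold, from 4 and 1 to 59 and 67. These bins were nearly silent, whereas bin 6 of the gene held 191 and 176 control reads and rose 2.93-fold. Bin 9 of Pdlim7, a related scaffold, rose 7.03-fold, from 11 and 19 reads to 137 and 74. Its shPtbp1 libraries lay far apart, with both above both controls, which the definition of a rise requires.

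Other nearly silent bins of cytoskeletal and adhesion genes rose as follows. Bin 13 of Sorbs2, an adaptor of stress fibres and junctions, went from 23 and 16 reads to 102 and 103. Bin 1 of Ctnna2, the neuronal alpha-catenin, held 11 and 13 reads in shCtrl and 69 in each shPtbp1 library. Bin 16 of Myo10, a filopodial motor, went from 9 and 3 to 35 and 33. The shPtbp1 replicates of Sorbs2, Ctnna2 and Myo10 were nearly equal, and the controls were far below them.

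Bin 31 of Plec, which encodes the cytolinker plectin, had no control read and 8 and 14 shPtbp1 reads, at least 7.33-fold higher against a floor of 3 reads over the control group. Bin 31 of Ank1, which ties membrane proteins to spectrin, went from 2 and 1 reads to 10 and 11, a ratio of 7.00 (interval 2.09 to 36.7). With so few reads these folds are imprecise.

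Nearly silent bins of microtubule genes also rose. Dctn1 encodes the largest subunit of dynactin, the activator of the dynein motor. Its bin 6 rose 8.37-fold, from 28 and 10 reads to 148 and 170, and the neighbouring bin 5 rose 5.90-fold, from 5 and 5 to 24 and 35. The control libraries of bin 6 were far apart, but both lay far under the knockdown libraries. Bin 19 of Clasp2, which stabilises growing microtubule ends, rose 3.12-fold, from 12 and 14 reads to 34 and 47. Bin 45 of Pde4dip, which encodes the centrosomal and Golgi protein myomegalin, had no control read and 13 and 7 shPtbp1 reads, at least 6.67-fold higher against the same floor.

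Of genes with roles in membrane trafficking or at the synapse, bin 16 of Aak1, the kinase that phosphorylates the AP-2 endocytic adaptor, rose 9.22-fold, from 3 and 6 reads to 42 and 41. Bin 7 of Rtn3, a membrane-shaping reticulon, rose 5.66-fold, from 27 and 8 to 115 and 83. Bin 16 of Dlg3, a synaptic scaffold, went from 10 and 18 reads to 63 in each shPtbp1 library. All shPtbp1 values of these 3 bins were above all control values, which the definition of a rise requires. Bin 4 of Reep6, of an endoplasmic reticulum protein family, rose 3.19-fold, and bin 12 of Gabbr2, a subunit of the GABA-B receptor, went from 2 and 5 reads to 9 and 8. The interval of the Gabbr2 ratio, 0.957 to 6.93, includes equality.

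Nearly silent bins of signalling genes rose as well. Bin 5 of Src, the tyrosine kinase with a classic PTBP1-repressed exon, went from 15 and 17 reads to 34 and 37, a 2.22-fold rise (interval 1.44 to 3.48), the smallest ratio of counts among the 46. Bin 6 of Tec, another tyrosine kinase, rose 4.06-fold, from 5 and 12 reads to 34 and 35. Bin 23 of Abr, a regulator of small GTPases, rose 6.20-fold, from 7 and 3 to 35 and 27. In these 3 genes the knockdown replicates differed from each other by less than the gap to the controls. Bin 8 of Neo1, a receptor of netrins and guidance molecules, rose 4-fold, bin 7 of Rapgefl1 3.90-fold and bin 18 of Plekha6 4.12-fold.

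Camta1, which encodes a calmodulin-binding transcription activator, held 5 nearly silent bins with consecutive numbers. Bin 5 went from 2 and 4 reads to 23 and 20, bin 6 from 6 and 8 to 35 and 37, and bin 7 from 4 and 9 to 32 in each shPtbp1 library. Bin 8 changed from 8 and 6 to 36 and 47 reads, and bin 9 from 20 and 9 to 45 and 49. The 5 bins thus rose between 3.24-fold and 7.17-fold. Bin 17 of Dnmt3b, a DNA methyltransferase, rose 2.65-fold, from 10 and 7 reads to 21 and 24. Bin 5 of Pum2, which encodes a Pumilio translational repressor, had no control read and 10 reads in each shPtbp1 library, at least 6.67-fold higher against the floor.

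The remaining nearly silent bins that rose had no shared role. They included bin 2 of Pfkfb3, a regulator of glycolysis (19 and 11 reads to 88 and 86), and bin 8 of Ptgs1, the cyclooxygenase COX-1 (9 and 6 to 61 and 58). Bin 5 of the collectin gene Colec11 rose 9.60-fold from 2 and 3 reads, bin 10 of Itgbl1 3.85-fold from 17 and 10, and bin 1 of Faim, an inhibitor of apoptosis, 3.24-fold from 23 and 10. Bin 15 of Efcab5 held 1 and 0 reads with shCtrl and 10 and 7 with shPtbp1, a ratio of 17.0 with an interval of 2.66 to 710. Bin 26 of Wdr52, bin 22 of A330021E22Rik, bin 1 of 5930412G12Rik and bin 1 of the gene with Entrez number 320856, for which no symbol was found, rose between 2.80-fold and 7.22-fold.

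The other 6 of the 52 nearly silent bins did not rise. Bin 3 of Gm16532 had 4 and 0 reads with shCtrl and 3 and 10 with shPtbp1, so its groups overlapped. Bin 5 of Clvs2 held 14 and 18 reads with shCtrl and 8 and 10 with shPtbp1. Bins that fell were bin 2 of Arid3c (2 and 9 reads to 0 and 0, at least 3.67-fold lower against the floor), bin 14 of the calcium channel gene Cacna1g (13 and 16 to 5 and 4), bin 1 of the dynein heavy chain gene Dnah7b (16 and 12 to 7 and 6) and bin 59 of Plb1 (8 and 5 to 4 and 2). All 6 had under 20 reads in each library. The interval of the Plb1 ratio of shPtbp1 over shCtrl, 0.144 to 1.30, includes equality, and that of Dnah7b reaches 0.926.

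**Figure D3:**
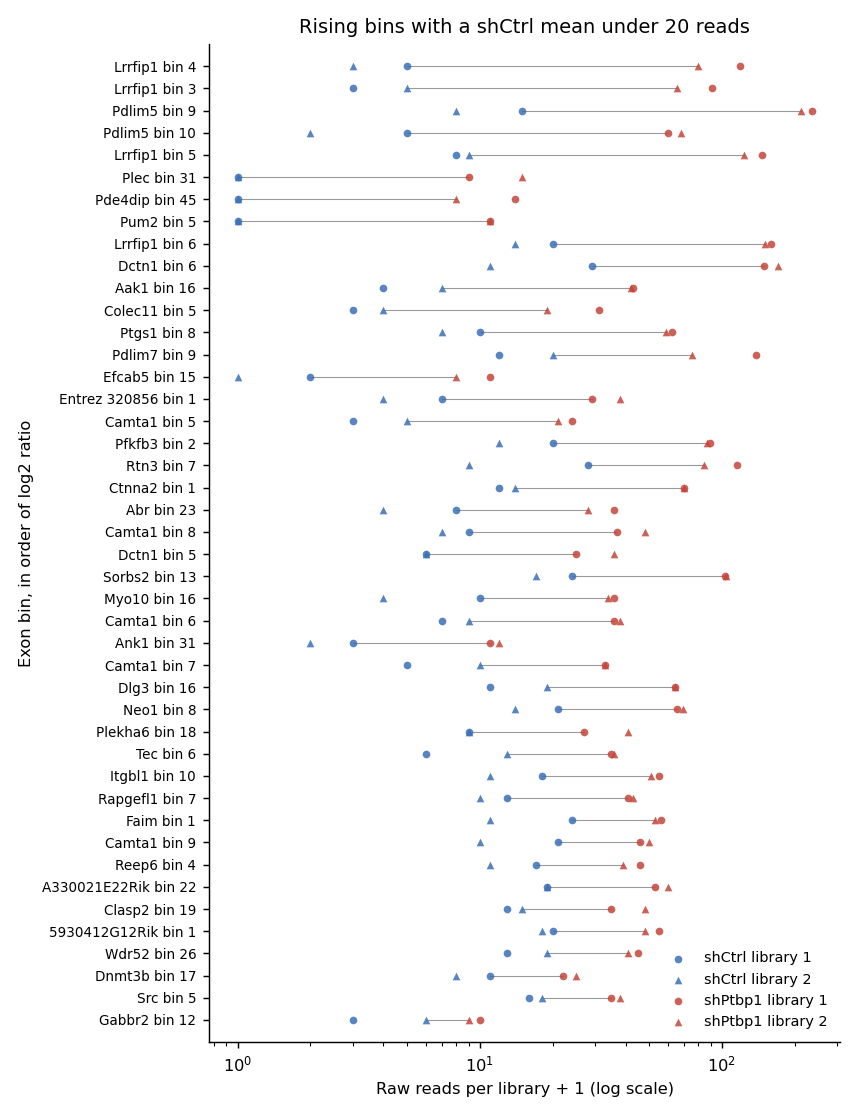
Raw reads plus 1 in each library (x axis, log scale) for 44 of the 46 exon bins that had a shCtrl mean under 20 reads and rose, ordered by log2 ratio (y axis). Blue symbols are shCtrl and red symbols shPtbp1 libraries, and the grey line spans the gap between the highest control and the lowest knockdown value. Gaps are widest in bins of Lrrfip1 and Pdlim5, and that of Gabbr2 bin 12 is the narrowest.

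Of the 179 bins with a control mean of 20 reads or more, 75 rose and 25 fell. Bin 8 of Ap2a1, the alpha subunit of the AP-2 adaptor, rose 8.32-fold (interval 6.51 to 10.8), and bin 7 of Porcn, the enzyme that lipidates Wnt proteins, rose 7.55-fold, from 30 and 17 reads to 185 and 170. Bins 11 and 12 of Rapgef1, an activator of Rap GTPases, rose 4.46-fold and 6.84-fold. These bins were low but not silent in control cells. Clta, a clathrin light chain, had bin 5 at 77 reads in each control library and at 385 and 418 in shPtbp1, and bin 4 at 75 and 66 against 262 and 248. Bin 6 of Camk2b, a subunit of a calcium/calmodulin-dependent kinase, rose 3.67-fold, from 75 and 68 reads to 261 and 264. Bin 7 of Exoc7, of the exocyst complex, rose 3.48-fold, bin 8 of Clip2, a microtubule plus-end linker, 4.46-fold, and bin 18 of Ctnnd1, the cadherin-associated p120 catenin, 3.58-fold. In each of these bins both knockdown libraries exceeded both control libraries, which the definition of a rise requires.

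The lists of genes by function, written with earlier results of these data known, divided as follows. Of the actin cytoskeleton and adhesion list, 16 of 118 genes held 45 low-control bins, of which 32 rose, 7 fell and 6 did neither, with a median log2 ratio of 1.54. Of the 32, 10 were bins of Lrrfip1 and 7 of Sorbs3, and 5 of the 7 falls were bins of Pdlim7. Over all 114 listed bins of this list's genes, 34.2% rose. Of the textbook PTBP1 targets, 9 of 57 genes held 16 such bins, of which 12 rose and none of the 16 fell. The 12 lie in Ap2a1, Camk2b, Camta1, Clta, Mink1 and Src, and 6 of them are bins of Camta1. Over all 66 listed bins of the textbook list's genes, 28.8% rose. Bin 6 of Bin1, an endocytic and membrane-curving protein, held 97 and 85 reads with shCtrl and 152 and 172 with shPtbp1 and missed the 2-fold limit.

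In the microtubule, motor and axon list, 7 of 11 bins rose and 1 fell, and in the endocytosis, synapse and trafficking list 7 of 15 rose and 2 fell. Bin 9 of Tmem87a, a Golgi protein, went from 68 reads in each control library to 13 and 18, and bin 15 of Osbpl9, an oxysterol-binding protein, from 49 and 48 to 16 in each. These were the bins of the trafficking list that fell. Of the signalling list, 10 of 22 bins rose and 8 fell, and all 8 were bins of Zak, a stress-activated kinase of the MAP kinase cascade. Chromatin and transcription genes gave 9 bins, 7 rising (6 of Camta1 and that of Dnmt3b) and 1 falling, bin 14 of Cux1. Among 4 bins of RNA-binding protein genes, those of Pum2, R3hdm1 and R3hdm2 rose, while bin 1 of Celf1, a splicing factor, went from 144 and 137 reads to 75 in each shPtbp1 library and missed the limit. Of 3 bins of channel and transporter genes, that of Abcb9 rose and that of Cacna1g fell. No ribosomal or housekeeping gene of the 41 listed held a low-control bin. Over all 231 bins, 52.4% rose. Over all listed bins of a list's genes, 20.5% of 44 rose for microtubule, 17.6% of 51 for trafficking and 26.5% of 49 for signalling genes. The same share was 22.9% of 35 for chromatin, 21.1% of 19 for RNA-binding and 15.8% of 19 for channel genes. The low-control bins are part of these totals.

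None of the 5 marker bins rose. Bin 4 of Cd44, an adhesion receptor and stem cell and astrocyte marker, fell from 171 and 158 reads to 77 and 75. Bin 25 of Prom1, a stem cell surface protein, held 56 and 51 reads with shCtrl and 59 and 76 with shPtbp1. Bin 1 of Ncam1 held 140 and 156 against 92 and 96, and bin 9 of Nfasc 133 and 132 against 106 and 104. The 5 values concern single bins and not the level of the gene.

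Some members came in series within a gene, while 153 of the 173 genes held 1 each. In 20 genes 2 or more bins were low in control, and these genes held 78 of the 231 bins. In 46 cases a bin and the next number were both low in control, and in 43 of these the sign of the change was the same. Such pairs were not counted over all listed bins. Such neighbours can belong to the same transcripts, and reads that span a junction can be counted in both, so they are not independent.

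Lrrfip1 had 10 low-control bins, numbers 3 to 10, 16 and 17, and all 10 rose, between 4.48-fold (bin 8) and 32.8-fold (bin 4). Bin 16 changed from 32 and 24 to 391 and 398 reads, and bin 17 from 131 and 104 to 674 and 642. The other 7 listed bins of the gene changed less. Bins 11 and 20 to 24 also gained reads, at log2 ratios of 0.80 (bin 11) to 1.07 (bin 20). Bin 19, with the most reads of the 7, did not: it held 12957 and 11549 reads with shCtrl and 11408 and 11257 with shPtbp1. Bin 16 rose from 0.146% ± 0.017 to 1.48% ± 0.052 of the reads in the 17 listed Lrrfip1 bins (SD, n = 2), which includes no uncalled bin.

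In Sorbs3, which encodes vinexin, all 7 listed bins were low in control and all rose, between 2.13-fold and 2.95-fold. Bin 13 rose least, from 67 and 46 reads to 106 and 135, and bin 18 most, from 40 and 25 to 95 and 97. Bin 10 took 20.9% ± 1.2 of the listed reads in shCtrl and 20.6% ± 0.15 in shPtbp1 (SD, n = 2). Bin 13 went from 15.0% ± 0.69 to 13.2% ± 0.75 and bin 18 from 8.54% ± 0.96 to 10.6% ± 1.1 (SD, n = 2). Sorbs2 had 3 low-control bins, all rising: bin 13 from 6.88% ± 1.8 to 13.9% ± 0.67 of the listed reads, and bin 12 from 48.6% ± 6.5 to 47.1% ± 1.6 (SD, n = 2).

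Pdlim7 held the only gene-wide contrast in which some low-control bins fell and another rose at least 2-fold. Bins 1 to 5 fell, bin 4 from 161 and 136 reads to 45 and 26 and bin 3 from 175 and 153 to 46 and 33, while bin 9 rose as given above. Bin 4 went from 5.56% ± 0.092 to 1.21% ± 0.40 of the reads in 8 listed bins, and bin 9 from 0.576% ± 0.27 to 3.59% ± 1.3 (SD, n = 2). Bin 6, which is not low in control, held 1756 and 1547 reads with shCtrl and 2550 and 2398 with shPtbp1.

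Zak had 8 low-control bins, numbers 12 to 19, and all fell, between 3.79-fold (bin 15) and 5.21-fold (bin 13). Bin 13 changed from 58 and 41 to 8 and 11 reads, and bin 14 from 114 and 81 to 20 and 22. Bin 20, above the threshold, fell alongside them from 712 and 631 reads to 147 and 155. Bin 11 did not: it held 6579 and 5851 reads with shCtrl and 6674 and 6686 with shPtbp1.

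**Figure D4:**
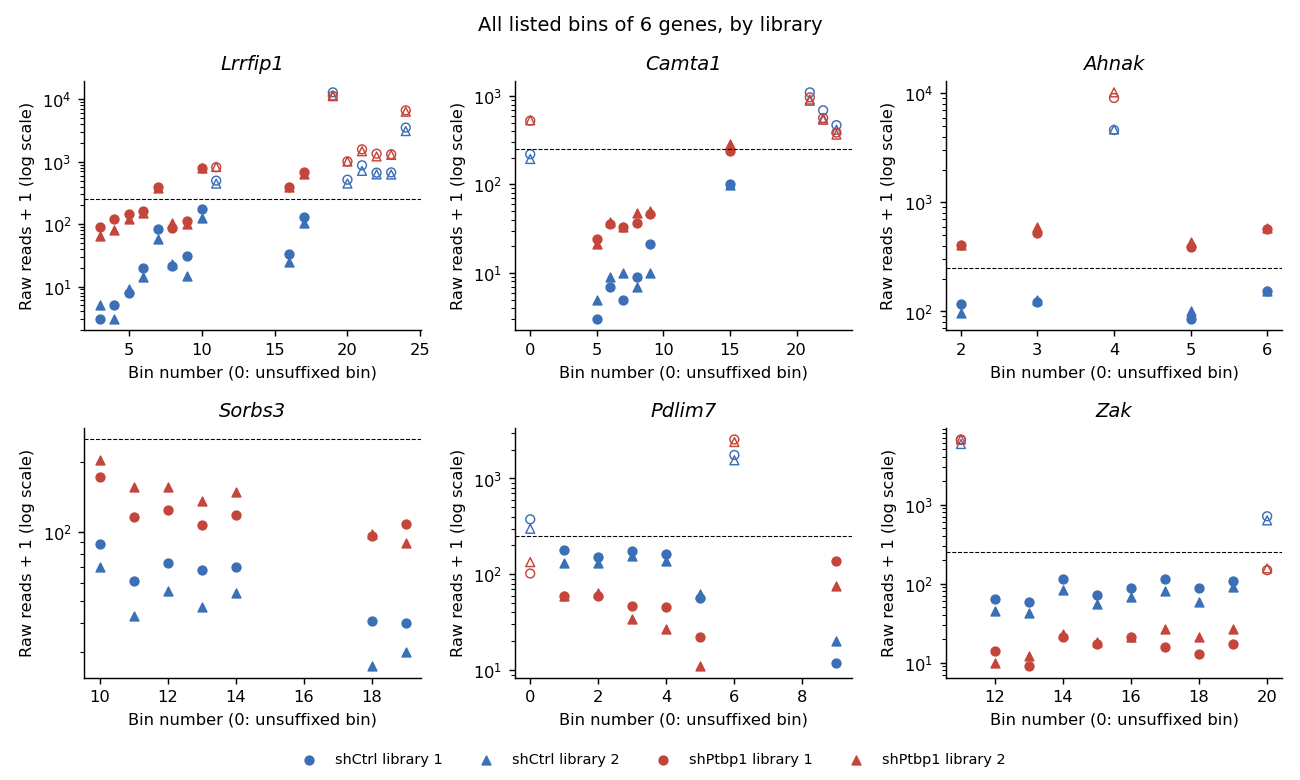
Raw reads plus 1 (y axes, log scale) in every listed bin of 6 genes by bin number (x axes, with 0 for the unsuffixed bin). Blue symbols are shCtrl and red symbols shPtbp1 libraries, filled symbols are low-control bins, open symbols the other listed bins, and the dashed line is 250 reads. Red lies above blue in all filled bins of Lrrfip1, Camta1, Ahnak and Sorbs3 and below blue in those of Zak, and both orders occur in Pdlim7.

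Zak and Pdlim7 held 13 of the 29 bins that fell, and the other 16 lay in 16 genes, with 1 bin each. Bin 3 of Dll3, a Notch ligand family member, went from 194 and 146 reads to 50 and 39. Bin 30 of Flnc, a filamin, held 216 and 106 reads with shCtrl and 47 and 49 with shPtbp1. The controls of Flnc were far apart, with both above the knockdown libraries, which the definition of a fall requires. Bin 25 of Pola1, the catalytic subunit of DNA polymerase alpha, changed from 163 and 137 to 42 and 49 reads, and bin 3 of Eml4, a microtubule-associated protein, from 210 and 235 to 73 and 88. Single bins of Vwa5b1, St8sia1, Phkb and Trappc9 also fell, between 2.09-fold and 3.47-fold.

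Whether a bin moved alone or with its gene was examined where the table listed at least 2 bins of the gene, which held for 108 of the 231 bins in 50 genes. Their share of the gene's listed reads was higher in both shPtbp1 libraries than in both controls in 61, lower in 39 and overlapping in 8. All listed bins were called for differing usage, which favours a shift in share. In a gene with 2 listed bins, a higher share of 1 bin forces a lower share of the other. The same counts over all listed bins were not made, so nothing is read from these. Of the 57 of them that rose, the other listed bins of the gene together changed by less than 1.5-fold in 28 and rose at least 2-fold in 25. The median log2 ratio was 2.13 for these bins and 0.72 for the rest of their genes' listed reads. Of 14 bins that fell, the rest changed by less than 1.5-fold in 13. All 13 were bins of Zak and Pdlim7, so they are not independent cases. In Zak, bin 11 held 83.0% of the listed reads in shCtrl (mean of 2 libraries) and did not fall. Bin 20 of Zak fell with the low-control bins. For 123 bins no other bin of the gene was listed, and uncalled bins were not analysed here.

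Mink1, a kinase of the germinal centre family, gives an example of 2 low-control bins that exchanged shares. Bin 17 held 168 and 153 reads with shCtrl and 134 and 125 with shPtbp1, and bin 20 rose from 165 and 137 to 310 and 324. Bin 20 thus went from 48.4% ± 1.6 to 71.0% ± 1.7 of the reads in the 2 bins (SD, n = 2). In Omd, which encodes the matrix protein osteomodulin, bin 1 held 90 and 85 reads with shCtrl and 75 and 99 with shPtbp1, while bin 2 rose from 61 and 54 to 301 and 266.

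The log2 fold in the authors' deposited table comes from their test of exon usage and is not a ratio of raw counts. For bins that rose, the raw log2 ratio was 2.16 times the listed fold in the median, on the listed values of the authors' deposited table. In 20 bins of 17 genes the raw count rose while the fold in the authors' deposited table was under 0.4. Bins 2, 3, 5 and 6 of Ahnak, a large scaffold protein, rose between 3.73-fold and 4.49-fold while the authors' deposited table lists log2 folds of 0.22 to 0.35. Bin 4 of Ahnak, with 4611 and 4666 control reads, rose too, to 9076 and 10217. Bin 3 of Wnt9a, a secreted Wnt ligand, rose 3.86-fold, from 175 and 115 reads to 569 and 550, while the authors' deposited table gives -0.06 as its log2 fold.

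In 7 of the 222 bins with a listed fold, the raw change and the listed fold of the authors' deposited table had opposite signs, against 16.9% of all listed bins with a fold. Besides Wnt9a these include bin 1 of E530001K10Rik, at 42 and 52 reads with shCtrl and 75 and 113 with shPtbp1, for which the authors' deposited table gives a log2 fold of -0.41.

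**Figure D5:**
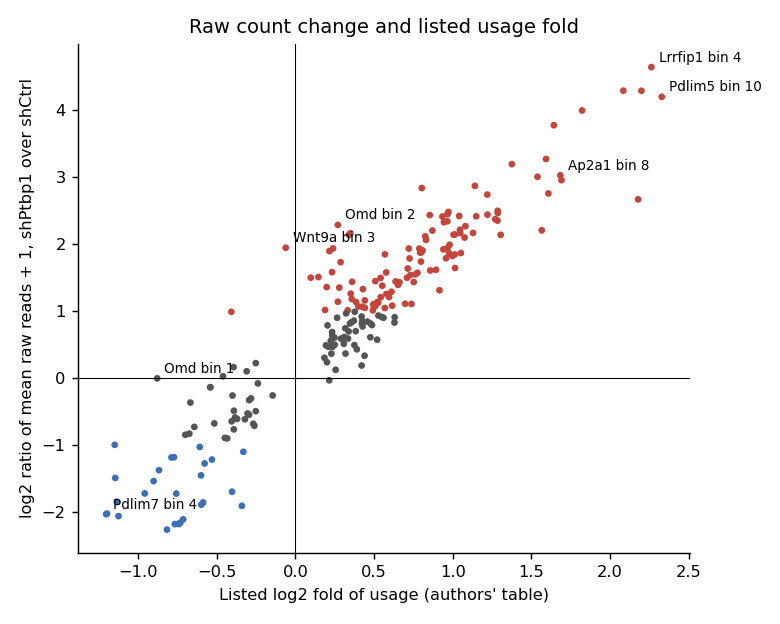
The log2 ratio of mean raw reads plus 1, shPtbp1 over shCtrl (y axis), against the log2 fold of usage listed in the authors' deposited table (x axis) for the 219 low-control bins with a listed fold and at least 1 control read. Red bins rose, blue bins fell and dark bins did neither. Most points lie near a steep diagonal, and Wnt9a bin 3 and Omd bin 2 lie above it at listed folds of -0.06 and 0.27.

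The same control libraries served the comparison with shPnky, whose table called 0.155% of 160603 bins, a total derived in the same way. The shPnky table holds rows for 9 of the 231 bins, of which 8 are given here, and for 12.3% of all 958 listed bins. Because the controls are shared, the counts are only set side by side. Bin 18 of Sorbs3 held 96 and 64 reads in shPnky, against 95 and 97 in shPtbp1 and 40 and 25 in shCtrl. Bin 15 of Camta1 held 201 and 164 in shPnky, 237 and 282 in shPtbp1 and 101 and 98 in shCtrl. Bin 3 of Wnt9a held 325 and 250 in shPnky, between the values of the other groups. In these 3 bins both knockdowns lay above the controls.

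Bin 9 of Ctnnd1 held 196 and 118 reads in shPnky, 403 and 472 in shPtbp1 and 264 and 234 in shCtrl. Bin 13 of Plod2, a collagen lysyl hydroxylase, held 104 and 72 in shPnky, 332 and 342 in shPtbp1 and 155 and 126 in shCtrl. Bin 15 of Limk2, a kinase that regulates cofilin, held 196 and 149 in shPnky, 319 in each shPtbp1 library and 214 and 206 in shCtrl. In these 3 bins shPtbp1 was above and shPnky below both controls. The difference between the knockdowns was not tested. Bin 31 of Mylk, the myosin light chain kinase, had 228 and 152 reads in shPnky, 200 and 170 in shPtbp1 and 139 and 129 in shCtrl. Bin 1 of U05342 had 205 and 148 in shPnky, 321 and 312 in shPtbp1 and 211 and 197 in shCtrl. No nearly silent bin has a row in the shPnky table.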

How the data were processed

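The authors deposited a table of exon bins per knockdown, named for DEXSeq, an exon usage test. Per the file headers, each row gives raw read counts of 4 libraries, a p-value and adjusted p-value, a log2 fold, and model scores (fitted usage, dispersion, statistic). Per the submitters' processing notes, reads were handled with TopHat2 2.0.10 and Cuffdiff 2.1.1 among other tools, on mm9, without stating which step each served. How bins were defined and counted, and with which DEXSeq version, is not given in the sources used here. Libraries were strand-specific and poly(A)-selected, per the labels' protocols.

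Bins were selected by row name and control mean (under 250 reads). Counts were compared unscaled, as log2 ratios of group means with a pseudocount of 1. No test was run, because the members were chosen by this contrast. A bin without reads in a group was set against a floor of 3 reads. Intervals are Clopper-Pearson (95%, Python 3.11.15, scipy 1.17.1). TMM factors came from edgeR 4.0.16. The interval and the rise rule were run on simulated Poisson counts with known ratios. The interval assumes such counts, so this run could not check a wider replicate spread. Of 173 member genes, 171 matched a RefSeq entry by Entrez number. Depth beyond the listed bins is unknown.

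The members and the 14 gene lists were chosen with earlier results of these data known. Bins were named by rule: nearly silent bins that rose to a mean of at least 20, bins without control reads, the 12 largest and smallest ratios, up to 6 per list, up to 10 in both tables, genes with 3 or more members, and the neighbours of the threshold. Other bins, among them those of Porcn, Ank1, Efcab5, Gabbr2, Plb1, Clvs2, Gm16532, Bin1, Mink1, Omd, Flnc, Pola1 and Eml4, were picked with their values in view. Alternatives comprised other scalings, thresholds and pseudocounts, and leaving out each library. Some genes are counted in the totals but not reported here.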

Additional observations from a re-analysis of the deposited data

How the results depend on the processing

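No paired analysis was possible because the results come from no test, so there is no fit to which the library number could be added as a block. Leaving out each library in turn gave 171 to 176 bins with a higher mean, 110 to 124 rising, 28 to 31 falling, 46 to 47 nearly silent and rising, a median log2 ratio of 0.94 to 1.13, and 62 to 63 bins with a higher share of their gene. Scaling by table totals, median-of-ratios factors or TMM gave 114 to 123 rising bins, of which 114 to 121 were among the 121. With an authors' adjusted p under 0.001 there were 18 falling and 26 nearly silent rising bins and a median of 1.20. With at least 50 reads on average there were 13 falling and 9 nearly silent rising bins. The median was 1.44 below 100 control reads and 0.69 below 500. Nearly silent rising bins numbered 25 below 10 control reads, and 53 bins rose at least 4-fold. In genes with at least 3 listed bins, 40 had a higher share. These settings select fewer or other bins by construction. Of 120 named bins under 7 settings each, 2 changed sign, neither of which had risen or fallen. Few reads per bin limit the precision: folds under 20 control reads have wide intervals.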
